A study of Mus musculus with 27 samples.

Results

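The comparison described here is lamin B1 knockdown (KD) against control cells after 8 h of TGF-β, in NMuMG cells, an established epithelial line from mouse mammary gland grown with serum and insulin. It rests on 4 RNA-seq libraries of the 27 samples of the series, chosen by their labels, and no measured value was used to choose them. The 2 control libraries (shCT) are from cells infected with lentivirus carrying an irrelevant short hairpin RNA, and the 2 KD libraries (shLB) are from cells infected with a hairpin against lamin B1. Both groups were selected with puromycin and received TGF-β at 1 to 5 ng/ml for 8 h. The same pair of groups was also sequenced untreated and at 24 h, which gives 12 libraries of infected cells, and 6 libraries of uninfected parental cells and the lamin B1 ChIP-seq peaks of parental cells were used as separate readouts. The sources give 2 biological replicates per group and name 1 lamin B1 hairpin, so an effect of lower lamin B1 and any other effect of that hairpin cannot be told apart.

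Lamin B1 is a filament protein of the nuclear lamina, the meshwork under the inner nuclear membrane that tethers chromatin and spaces nuclear pores, and a fraction of it lies in the nuclear interior. TGF-β drives NMuMG cells through the epithelial-to-mesenchymal transition (EMT), in which junction and keratin genes are switched down and matrix, adhesion and motility genes are switched up. Loss of lamin B1 has been linked to slow cell cycles and senescence in several cell types. For the KD cells of this study, however, the paper reports growth equal to that of control cells and no senescence. Its methods for these assays do not mention TGF-β. Whether the changes of cell cycle genes given below go with a change in growth was not tested.

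The values are FPKM, fragments per kilobase of transcript scaled to sequencing depth, for 24247 genes. Differences were computed on log2(FPKM + 1), which understates the change of genes at low FPKM, for the 11450 genes with at least 1 FPKM in 2 or more of the 12 libraries, and a gene was called at a Benjamini-Hochberg adjusted p under 0.05 in limma. No read counts accompany the values. The spacing of low values gave relative depths between 79.0% and 112.5%, taking the untreated control replicate 1 as 100%, and KD replicate 2 at 8 h had the lowest. Small and structural non-coding RNA genes held 35.6% and 32.3% of the FPKM sum in the control libraries at 8 h, 31.7% in KD replicate 1 and 15.6% in KD replicate 2. Pearson r across genes was 0.977 between the controls at 8 h, 0.974 between the KD libraries and 0.959 to 0.962 between control and KD. The columns of the table were assigned by the order of libraries in its title, since it has no header. Keratin and E-cadherin genes marked all 4 libraries as epithelial, but Cldn3, Pgr and Csn2, which mark luminal mammary cells, were listed at 0. Of the markers of other cell types, 1 of 8 fibroblast, 1 of 9 leukocyte, 0 of 6 endothelial and 0 of 5 adipocyte genes passed the filter. Their summed FPKM per library was 3.46 to 4.06, 1.35 to 1.72, 0.27 to 0.35 and 0.09 to 0.16. Thy1, Dcn, Lum, Fap, Adgre1, Cldn5, Adipoq, Plin1 and Lep were at 0 in all 4. These are bulk samples, in which fewer cells of a kind and less RNA per cell cannot be told apart.

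The targeted gene checked which libraries are control and which are KD, but it cannot check the time labels or the replicate numbers. Lmnb1 was at 32.8 and 32.1 FPKM in the control libraries at 8 h and at 7.79 and 8.14 FPKM in the KD libraries. The groups were far apart, and control was 4.07-fold higher by the means. The difference was -1.90 (SE 0.18, adjusted p = 1.89e-04). In untreated cells Lmnb1 was at 29.2 and 36.5 FPKM in control and at 9.01 and 9.27 in KD, and at 24 h at 18.4 and 17.9 in control and at 4.37 and 7.52 in KD. The KD was thus present at each time, and its size at 8 h did not differ detectably from that at 0 h (difference of the effects -0.17, SE 0.26, adjusted p = 0.763) or at 24 h (-0.40, SE 0.26, adjusted p = 0.504).

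KD cells at 8 h differed from control in many genes by small amounts. Of 11450 genes, 2212 were called higher in KD (19.3%) and 1892 lower (16.5%), in all 4104 (35.8%). The counts of each gene list below are to be read beside these shares of all genes. The median rise was 0.33 and the median fall -0.30 on the log2 scale, and the median of all genes was 0.01. A 2-fold change or more was reached by 70 of the called genes that rose (0.611% of all tested) and by 22 that fell (0.192%), together 2.24% of the calls. Each of the 4104 called genes had libraries that did not overlap between the groups, while without regard to calls 39.8% of all genes had both KD libraries above control and 37.2% had both below. The number of calls fell to 2440 without control replicate 1, 2330 without control replicate 2, 2440 without KD replicate 1 and 2398 without KD replicate 2, each of which leaves its group with 1 library whose spread is taken from the other groups. By mean level of the 4 libraries, 17.1% of 4524 genes at 1 to 10 FPKM were higher and 14.8% lower, 21.4% and 17.9% of 5377 genes at 10 to 100 FPKM, and 21.5% and 25% of 851 genes over 100 FPKM.

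**Figure D1:**
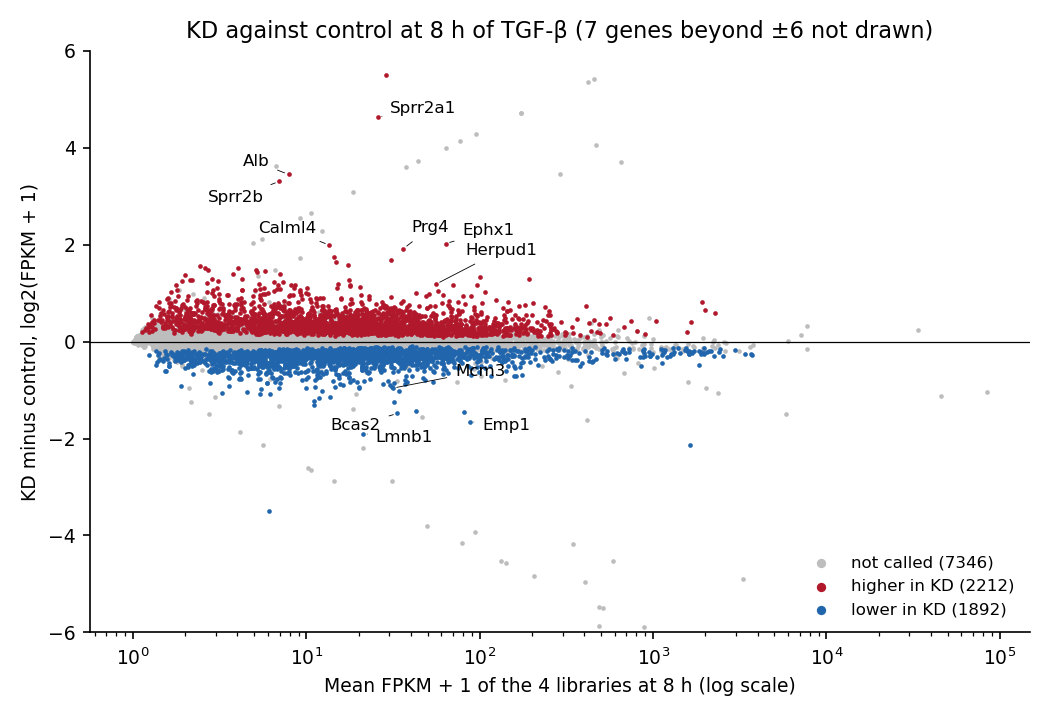
Difference between KD and control at 8 h of TGF-β on the log2(FPKM + 1) scale (y axis) against the mean FPKM + 1 of the 4 libraries (x axis, log scale), 1 point per gene, with 2212 genes higher in KD in red, 1892 lower in blue and 7346 not called in grey. Most called genes lie within 1 unit of the line at 0, while Sprr2a1, Alb, Sprr2b and Lmnb1 stand far from it. The 7 genes beyond ±6 are not drawn.

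In the nuclear envelope list, which holds Lmnb1 itself, 6 of 14 genes fell, 1 rose and 7 were not called, with a median of -0.08. Lmnb2, the other B-type lamin, was at 17.7 and 17.6 FPKM in control and 10.6 and 10.7 in KD, a fall of 1.66-fold by the means (-0.68, SE 0.06, adjusted p = 1.11e-04). Its libraries were tight within each group and clearly apart between them. Tmpo, which encodes the LAP2 proteins that bind lamins and chromatin, was at 73.4 and 75.7 FPKM in control and 54.6 and 55.7 in KD (-0.43, SE 0.06, adjusted p = 0.0014). Lmna, the A-type lamin, was at 506 and 497 FPKM in control and 477 and 514 in KD. The groups overlapped, and no difference was called (-0.02, SE 0.06, adjusted p = 0.840). Smaller falls were called for Emd, emerin (-0.20), and Banf1, which links DNA to the inner membrane (-0.19), and a rise for Sun2, a bridge to the cytoskeleton (0.28). Syne2, the nesprin that binds SUN proteins, was at 5.71 and 5.10 FPKM in control and 3.98 and 2.44 in KD (-0.63, adjusted p = 0.0414). The calls of Banf1 were lost when any 1 of the 4 libraries was left out, those of Emd without control replicate 2 or either KD library, and those of Sun2 and Syne2 without either control library or KD replicate 2. Lbr, Lemd2, Lemd3, Sun1, Syne1 and Tor1aip1 were not called, with differences between -0.14 and 0.12.

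The largest rises were in genes of different kinds. Sprr2a1, a small proline-rich protein of the epithelial cornified envelope, was at 0.838 and 1.17 FPKM in control and at 46.6 and 50.4 FPKM in KD, 48.2-fold higher by the means (4.63, SE 0.12, adjusted p = 3.58e-07). Its neighbour Sprr2b was at 0.295 and 0.256 FPKM in control and 10.5 and 12.8 in KD (3.30, SE 0.13, adjusted p = 2.76e-06). Both KD libraries were many times above both controls for each gene. Sprr2a1, Sprr2b and Sprr2h lie on chromosome 3 of mm9, at chr3:92019757-92026407, chr3:92120627-92122007 and chr3:92189607-92191246, all on the plus strand and without a lamin B1 peak at 8 h. Members of the Sprr2 family are close in sequence, so reads may have been split among them and the value of any 1 member is uncertain.

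Alb, serum albumin, was at 0.277 and 0.363 FPKM in control and 12.4 and 14.5 in KD (3.45, SE 0.20, adjusted p = 2.09e-05). Ephx1, microsomal epoxide hydrolase, was at 22.9 and 25.4 FPKM in control and 96.4 and 105 in KD, 4.18-fold higher (2.02, SE 0.16, adjusted p = 9.54e-05). Calml4, a calmodulin-like protein of microvilli, was at 4.16 and 4.72 FPKM in control and 21.0 and 20.2 in KD (1.99, SE 0.11, adjusted p = 1.70e-05). In each of these genes the groups were well separated. Prg4, the lubricating proteoglycan lubricin, was at 15.3 and 13.1 FPKM in control and 56.9 and 55.7 in KD (1.92, SE 0.07, adjusted p = 2.76e-06). Smaller rises were measured for the lipopolysaccharide-binding protein Lbp (1.74), the pantetheinase Vnn1 (1.67), the carboxylesterase Ces2g (1.64), the extracellular superoxide dismutase Sod3 (1.58), the integrin chain Itga1 (1.49) and AW112010 (1.46).

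**Figure D2:**
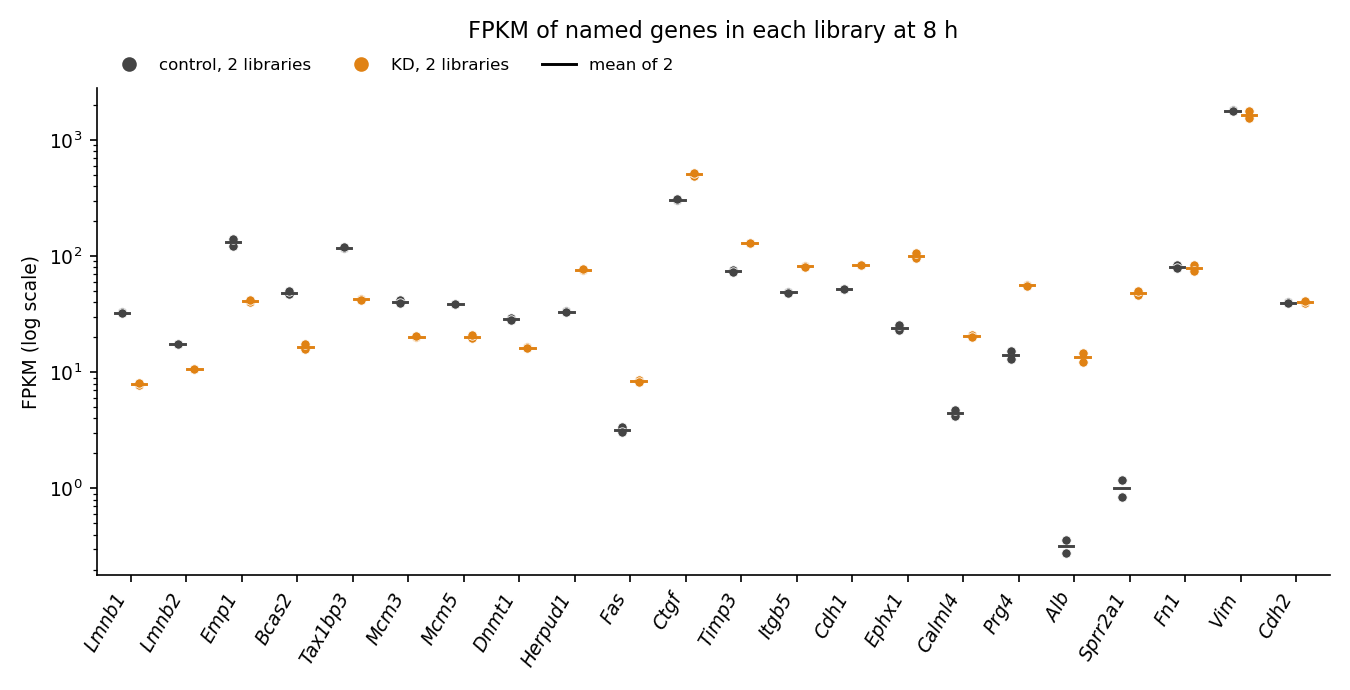
FPKM (y axis, log scale) of 22 named genes in each of the 4 libraries at 8 h, with control in dark grey and KD in orange, 1 point per library and a bar at the mean of 2. Replicates nearly coincide for most genes, Lmnb1, Emp1, Bcas2 and Tax1bp3 are lower in KD, Sprr2a1 and Alb are far higher, and Fn1, Vim and Cdh2 overlap or lie close between the groups.

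Among the largest falls besides Lmnb1 was Emp1, an epithelial membrane protein, at 122 and 141 FPKM in control and 40.6 and 41.7 in KD, 3.20-fold lower (-1.65, SE 0.14, adjusted p = 1.10e-04). Bcas2, a subunit of the spliceosome-associated PRP19 complex, was at 46.9 and 49.6 FPKM in control and 15.8 and 17.5 in KD (-1.48, SE 0.10, adjusted p = 4.15e-05). Tax1bp3, a PDZ-domain protein, was at 117 and 119 FPKM in control and 42.9 and 41.8 in KD (-1.46, SE 0.13, adjusted p = 1.47e-04). All KD libraries lay below all controls in these 3 genes. Mesdc1 (-1.31), Lims1, the focal adhesion protein PINCH1 (-1.24), Commd10 (-1.22), Anxa10 (-1.17), Errfi1, a feedback inhibitor of the EGF receptor (-1.14), and the chemokine Cxcl5 (-1.09) also fell. Gm12238 was at 9.84 and 10.6 FPKM in control and was listed at 0 in both KD libraries, a call that was lost when any 1 of the 4 libraries was left out.

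Several of these falls had nearly the same size whether or not TGF-β was present. Bcas2 differed by -1.48 at 0 h, -1.48 at 8 h and -1.17 at 24 h, Tax1bp3 by -1.49, -1.46 and -1.26, Lims1 by -1.44, -1.24 and -1.37, Mesdc1 by -1.19, -1.31 and -1.11, Commd10 by -1.27, -1.22 and -0.96, and Emp1 by -1.32, -1.65 and -1.63. All 6 were called at each of the 3 times. The effect at 8 h minus that at 0 h ranged over these genes from -0.33 for Emp1 (SE 0.20, adjusted p = 0.386) to 0.20 for Lims1 (SE 0.07, adjusted p = 0.142), and no difference was called.

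Genes of DNA replication and S phase fell almost as a whole. Of 29 members, 27 fell, 0 rose and 2 (Ccne2 and Rrm2) were not called, with a median of -0.64 against 0.01 for all genes and a share called lower of 93.1% against 16.5%. All 29 differences were negative, and 24 were called lower when any 1 of the 4 libraries was left out. Mcm3, a subunit of the replicative helicase, was at 41.5 and 39.4 FPKM in control and 20.3 and 20.3 in KD (-0.96, SE 0.10, adjusted p = 3.13e-04). Mcm5, of the same helicase, was at 38.6 and 38.7 FPKM in control and 19.6 and 20.8 in KD (-0.90, SE 0.08, adjusted p = 1.18e-04). For each gene both KD libraries lay far below both controls. Uhrf1, which recruits the maintenance DNA methyltransferase to replicating DNA, fell by 0.95 on the log2 scale, and Chaf1b, a subunit of the histone chaperone CAF-1, by 0.94. Dnmt1, the methyltransferase itself, was at 29.1 and 27.9 FPKM in control and 16.4 and 16.1 in KD (-0.78, SE 0.12, adjusted p = 0.00165). Mcm2 (-0.85), Mcm4 (-0.83), Mcm7 (-0.82), Cdc6 (-0.76), which loads the helicase, the sliding clamp Pcna (-0.72) and Pola1 (-0.62), the catalytic chain of the priming polymerase, were of similar size.

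The promoters of this list were searched for an E2F-type motif. E2F factors are the regulators known for the transcription of S phase genes. TTTCCCGC or TTTGGCGC, searched on both strands from 250 bases before to 50 bases after the RefSeq start (GRCm38.p6), was found in 8 of the 24 S phase promoters that could be matched (33.3%), in 1.80% of 27025 promoters of the RefSeq table and in 3.67% of the 8666 matched promoters of tested genes. Genes lower in KD held it in 6.85% of 1446 promoters and genes higher in KD in 1.64% of 1712. S phase genes that fell are counted again among those lower in KD. These shares describe the letters only and were not tested. Stretches around the motif of 4 of the S phase genes that fell are given to show it, 5′ to 3′ on the strand of the gene, with the motif or its reverse complement in capitals. They lie at chr8:75109310-75109397 (plus strand), chr5:138172011-138172098 (minus), chr11:98907963-98908050 (plus) and chrX:93632256-93632343 (minus), and the motif begins 149, 165, 138 and 138 bases before the start of the gene.
Mcm5: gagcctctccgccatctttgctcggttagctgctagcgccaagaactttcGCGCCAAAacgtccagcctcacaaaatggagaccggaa
Mcm7: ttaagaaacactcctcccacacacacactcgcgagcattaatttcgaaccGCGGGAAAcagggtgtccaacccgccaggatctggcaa
Cdc6: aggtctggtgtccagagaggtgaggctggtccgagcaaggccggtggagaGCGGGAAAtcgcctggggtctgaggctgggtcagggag
Pola1: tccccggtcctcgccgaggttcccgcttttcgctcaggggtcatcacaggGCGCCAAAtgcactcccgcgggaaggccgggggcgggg

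Genes of mitosis and G2/M fell less. Of 26 members, 15 fell, 0 rose and 11 were not called, with a median of -0.32, and all 26 differences were negative. Only 4 to 5 were called when 1 library was left out (4 without either control library and 5 without either KD library). Prc1, which bundles the microtubules of the spindle midzone, was at 64.8 and 65.3 FPKM in control and 41.0 and 42.2 in KD (-0.63, SE 0.09, adjusted p = 9.21e-04). The kinase Aurkb was at 27.0 and 29.2 FPKM in control and 19.4 and 20.1 in KD (-0.49, SE 0.08, adjusted p = 0.00277). In both genes the KD libraries lay below the controls. The proliferation marker Mki67 (-0.45) and the kinase Plk1 (-0.45) were called in the full data, but Mki67 not without either control library or KD replicate 2, and Plk1 not without either control library or KD replicate 1. Of the cohesin and condensin genes, which hold and compact chromosomes, 9 of 19 fell and 0 rose (median -0.24), and 2 and 5 fell without control replicates 1 and 2 and 4 without either KD library. The condensin subunits Ncapg2 (-0.50), Ncapd3 (-0.49) and Ncapd2 (-0.41) were among them, and Ncapd2 was not called without control replicate 1.

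The nuclear transport list and the ribosomal list also moved down. Of 50 nuclear pore and transport genes tested, 27 fell and 0 rose (median -0.23), and 15 to 17 were called lower when 1 library was left out (16 and 15 without control replicates 1 and 2, 15 and 17 without KD replicates 1 and 2). Pom121, a membrane-anchored nucleoporin, was at 18.8 and 17.2 FPKM in control and 10.8 and 10.7 in KD (-0.69, SE 0.08, adjusted p = 3.87e-04), and Nup133, of the scaffold that coats the pore, at 11.5 and 11 FPKM in control and 7.26 and 7.09 in KD (-0.59, SE 0.07, adjusted p = 3.80e-04). The pores' KD values were lower in both replicates. Of 81 cytosolic ribosomal protein genes, 51 fell and 0 rose (median -0.19), but with quantile normalization 4 fell and 2 rose and the median was 0.04, and 21 to 43 fell without 1 of the 4 libraries (43 without control replicate 1, 21 without control replicate 2, 22 without KD replicate 1 and 40 without KD replicate 2). Rpl26, the called member with the largest change, was at 438 and 449 FPKM in control and 298 and 326 in KD (-0.51, SE 0.07, adjusted p = 9.00e-04). With median-of-ratios scaling 43 of the ribosomal genes fell and 0 rose (median -0.17). The direction of this list therefore turned with quantile normalization but not with median-of-ratios scaling. Among histone and DNA modifying enzymes 11 of 32 fell and 2 rose, with Hat1, a histone acetyltransferase (-0.53), Suv39h1, which methylates histone H3 in heterochromatin (-0.53), and Hdac7 (-0.52) beside Dnmt1. Splicing regulators fell in 9 of 21 and rose in 2, with Srsf7 at -0.38 and Srsf2 at -0.34, and 3 fell without KD replicate 1, while 6 to 7 fell without any other of the 4 libraries and 0 rose in all 4 cases.

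Genes of the endoplasmic reticulum (ER) stress response rose. Chaperones and degradation factors of the secretory pathway make up this list, and 14 of its 17 members rose and 0 fell, with all 17 differences above 0, a median of 0.28 and a share called higher of 82.4% against 19.3% of all genes. When 1 library was left out, 11 to 12 were called. Herpud1, which acts in degradation at the ER membrane, was at 33.6 and 32.7 FPKM in control and 76.4 and 76.8 in KD, 2.31-fold higher (1.18, SE 0.09, adjusted p = 7.55e-05). Edem1, which directs misfolded glycoproteins to degradation, was at 21.5 and 20.4 FPKM in control and 32.3 and 32.2 in KD (0.60, SE 0.04, adjusted p = 5.60e-05). Control and KD libraries of both genes were far apart relative to their spread. Xbp1, a transcription factor of the response, was at 73.0 and 74.7 FPKM in control and 104 and 105 in KD (0.49, SE 0.05, adjusted p = 2.80e-04). The chaperone Hspa5, also called BiP, rose by 0.37 and its partner Dnajc3 by 0.50.

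The ER stress element, here CCAAT followed after 9 bases by CCACG on either strand, is the promoter motif known for such genes. It was found in 6 of 15 matched promoters of the list (40.0%), in 0.137% of all 27025 promoters and in 0.162% of those of tested genes, in 9 promoters of genes higher in KD (0.526%) and in 1 of genes lower in KD (0.0692%). ER stress genes that rose are counted again among those higher in KD, and these shares were not tested. Stretches around it are given for 4 genes that rose, with the motif or its reverse complement in capitals, all on the plus strand of GRCm38.p6, at chr14:118937777-118937875, chr2:34771975-34772073, chr15:88819470-88819568 and chr12:17266441-17266539. The motif begins 105, 65, 126 and 98 bases before the start.
Dnajc3: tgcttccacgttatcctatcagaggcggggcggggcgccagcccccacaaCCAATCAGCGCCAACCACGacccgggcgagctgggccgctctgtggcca
Hspa5: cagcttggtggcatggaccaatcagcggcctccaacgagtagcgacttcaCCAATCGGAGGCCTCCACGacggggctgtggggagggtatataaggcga
Creld2: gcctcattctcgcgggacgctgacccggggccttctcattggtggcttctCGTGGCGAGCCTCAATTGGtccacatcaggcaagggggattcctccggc
Pdia6: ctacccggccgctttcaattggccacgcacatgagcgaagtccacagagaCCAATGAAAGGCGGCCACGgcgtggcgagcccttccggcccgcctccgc

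Targets of the tumour suppressor p53 also leaned upward. Of 21 members, 11 rose, 0 fell and 10 were not called (median 0.27), and 6 to 9 rose without 1 of the 4 libraries (6 without control replicate 2, 7 without either KD library, 9 without control replicate 1). Fas, the death receptor, was at 3.35 and 3.04 FPKM in control and 8.61 and 8.26 in KD, 2.64-fold higher (1.17, SE 0.11, adjusted p = 1.57e-04). Btg2, an antiproliferative gene, was at 7.38 and 6.59 FPKM in control and 14.1 and 13.6 in KD (0.90, SE 0.15, adjusted p = 0.00253). KD was higher in both replicates of both genes. Eda2r (0.67), Perp (0.56) and Cdkn1a, the cell cycle inhibitor p21 (0.37), rose, while Mdm2 (0.24) and Bax (-0.08) were not called.

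**Figure D3:**
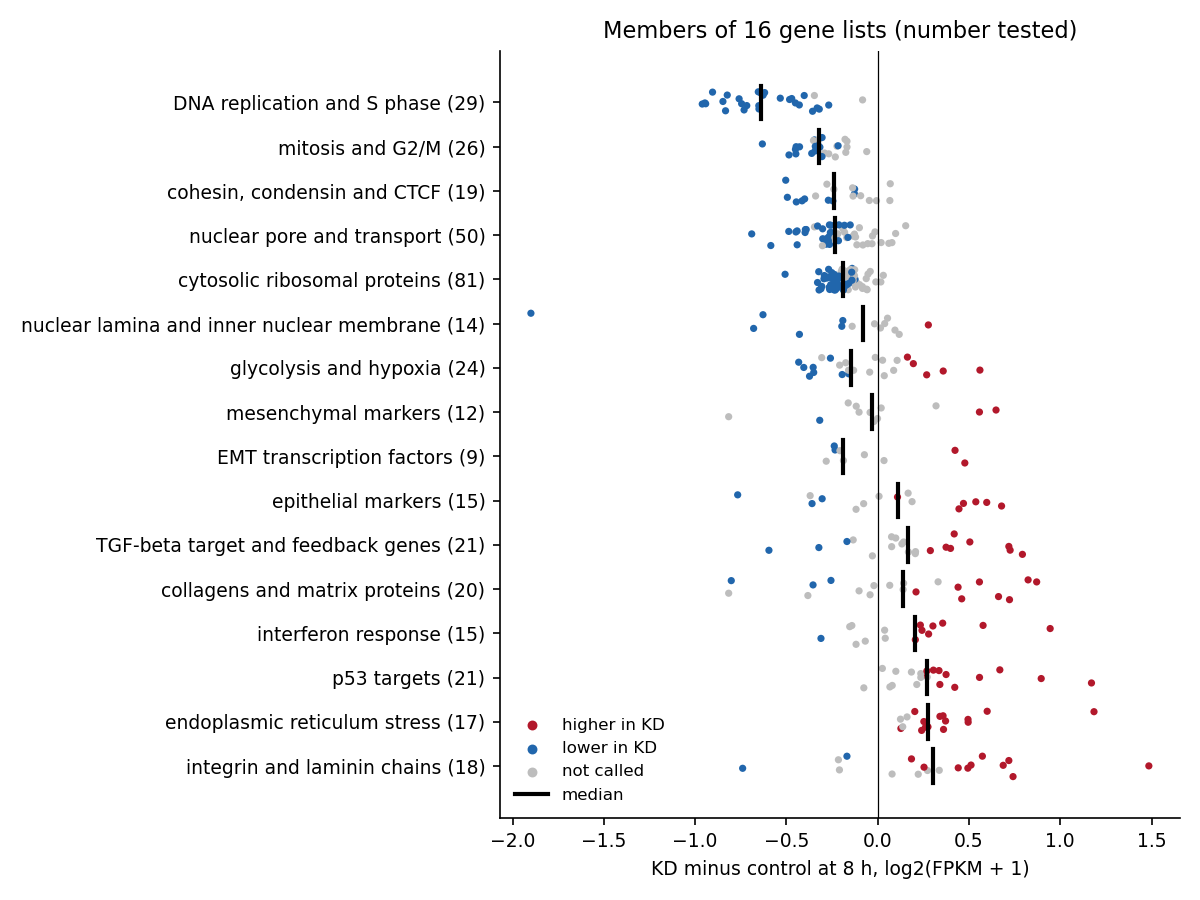
Difference between KD and control at 8 h (x axis, log2 of FPKM + 1) of every tested member of 16 gene lists (y axis, number tested in brackets), 1 point per gene, red where called higher, blue where called lower and grey where not called, with a black bar at the list's median. The S phase list lies wholly left of 0 with a median of -0.64, the ER stress list wholly right with a median of 0.28, and the mesenchymal and EMT transcription factor lists straddle 0.

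No call was made for the mesenchymal markers fibronectin, vimentin and N-cadherin, and E-cadherin was higher in KD. Fn1, fibronectin, was at 83.6 and 78.8 FPKM in control and 84.2 and 73.8 in KD (-0.04, SE 0.30, adjusted p = 0.930). Vim, vimentin, was at 1794 and 1768 FPKM in control and 1529 and 1763 in KD (-0.12, SE 0.08, adjusted p = 0.295), and Cdh2, N-cadherin, at 40.1 and 39.5 FPKM in control and 39.7 and 40.9 in KD (0.02, SE 0.04, adjusted p = 0.755). Fn1 and Cdh2 overlapped between the groups, and Vim lay just below control in KD, with none called. Cdh1, E-cadherin, was at 51.6 and 52.1 FPKM in control and 83.1 and 84.1 in KD, 1.61-fold higher (0.68, SE 0.10, adjusted p = 0.00173), with both KD libraries above both controls. Of 15 epithelial markers 6 rose and 3 fell (median 0.11), and 1 fell without KD replicate 2 and 0 without any other of the 4. Epcam (0.60) and Ocln, a tight junction protein (0.54), rose with Cdh1, while Cldn4, another tight junction protein, was at 7.71 and 7.26 FPKM in control and 3.72 and 4.27 in KD (-0.77, adjusted p = 0.0282), and Krt18 fell by 0.30. The calls of Cldn4 and Krt18 were lost when any 1 of the 4 libraries was left out.

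Of 12 mesenchymal markers 2 rose and 1 fell (median -0.03). Sparc, a matrix protein, was at 197 and 203 FPKM in control and 285 and 305 in KD (0.56, SE 0.08, adjusted p = 8.91e-04). Acta2, smooth muscle actin, rose from 0.166 and 0.154 FPKM to 0.834 and 0.802, and S100a4 fell by 0.32, a call lost without control replicate 2 or either KD library. Among 9 EMT transcription factors tested, Foxq1 (0.48) and Twist2 (0.42) rose and Zeb1 (-0.23) and Tcf4 (-0.24) fell, with a median of -0.19. Twist2 was not called without either control library or KD replicate 2, Zeb1 not without control replicate 1 or either KD library, and Tcf4 not when any 1 of the 4 was left out. Twist1, at 0.642 and 0.435 FPKM in control and 0.310 and 0.275 in KD, did not pass the filter.

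Of 18 TGF-β ligands, receptors and Smads, 5 rose and 3 fell (27.8% and 16.7%, beside 19.3% and 16.5% of all genes; median 0.11). Without either control library 2 rose and 2 fell, without KD replicate 1 3 rose and 2 fell, and without KD replicate 2 1 rose and 0 fell. Tgfbr2, the receptor that binds the ligand, was at 17.7 and 16.9 FPKM in control and 24.7 and 23.9 in KD (0.47, SE 0.05, adjusted p = 1.90e-04). Its signalling partner Tgfbr1 was at 29.1 and 31.6 FPKM in control and 46.1 and 44.3 in KD (0.56, SE 0.15, adjusted p = 0.0214), a call lost when any 1 of the 4 libraries was left out. Both receptors were higher in both KD libraries. The inhibitory Smad genes Smad6 (0.42) and Smad7 (0.29) rose, Smad2 (-0.22) and Smad5 (-0.19) and the latency protein gene Ltbp2 (-0.39) fell, and Tgfb1 (0.25), Smad3 (0.08) and Smad4 (-0.08) were not called. Smad6 lost its call without control replicate 1 or KD replicate 2, and Ltbp2, Smad2 and Smad5 without KD replicate 2.

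Of 21 TGF-β target and feedback genes 8 rose and 3 fell (median 0.17), with 6 rising without KD replicate 1 and 5 without any other of the 4 libraries. Timp3, an inhibitor of metalloproteases, was at 75.4 and 72.5 FPKM in control and 129 and 129 in KD (0.79, SE 0.08, adjusted p = 2.42e-04). Ctgf, connective tissue growth factor, was at 301 and 310 FPKM in control and 494 and 519 in KD (0.73, SE 0.07, adjusted p = 2.35e-04). Both were clearly higher in KD. Of the whole list 38.1% rose and 14.3% fell, beside 19.3% and 16.5% of all genes. Itgb6, the integrin chain that activates latent TGF-β, was at 11.7 and 11.6 FPKM in control and 20.2 and 19.4 in KD (0.72, SE 0.06, adjusted p = 8.82e-05). Tgif1, a co-repressor of the Smads, was at 76.7 and 74.3 FPKM in control and 50.1 and 49.1 in KD (-0.60, SE 0.13, adjusted p = 0.00878), a call lost without control replicate 1 or KD replicate 2.

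In the lists of integrin and laminin chains and of collagens and matrix proteins, most called genes rose. The focal adhesion genes Lims1 and Vcl, outside these lists, fell. Of the integrin and laminin chains tested 55.6% rose and 11.1% fell, beside 19.3% and 16.5% of all genes. Of these chains 1 was under the filter in the control libraries, and it adds no support to the count. Of 18 integrin and laminin chains 10 rose and 2 fell (median 0.31), with 8 to 10 rising without 1 of the 4 libraries. Itga1, the α1 chain of a collagen receptor, was at 1.77 and 1.58 FPKM in control and 6.68 and 6.30 in KD, 3.87-fold higher (1.49, SE 0.13, adjusted p = 1.43e-04). Itgb5 was at 49.0 and 48.2 FPKM in control and 82.6 and 81.3 in KD (0.74, SE 0.06, adjusted p = 9.05e-05). Both rises were far outside the spread of replicates. Lama3 (0.69), Itga2 (0.57) and Itgb4 (0.51) rose as well.

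Of 20 collagens and matrix proteins 8 rose and 3 fell (40% and 15%, beside 19.3% and 16.5% of all genes, median 0.14). Col6a2 was at 5.57 and 5.66 FPKM in control and 10.4 and 11.9 in KD (0.87, SE 0.16, adjusted p = 0.00352), and Col4a2, a basement membrane collagen, at 24.1 and 22.4 FPKM in control and 37.7 and 40.2 in KD (0.72, SE 0.07, adjusted p = 1.75e-04). Col7a1, which anchors the basement membrane, moved the other way, from 24.0 and 21.0 FPKM to 13 and 11.9 (-0.80, SE 0.11, adjusted p = 8.55e-04). The replicates of these collagens did not overlap. Col6a1 rose by 0.82, a call lost without control replicate 2 or KD replicate 2. Of 21 proteases and inhibitors 10 rose and 2 fell (median 0.08), with 7 rising without control replicate 1 and 6 without any other of the 4. The protease inhibitor Timp2 was at 184 and 176 FPKM in control and 297 and 295 in KD (0.71, SE 0.06, adjusted p = 1.37e-04), and the membrane protease Adam8 rose by 0.51. Actin cytoskeleton and contractile genes fell in 7 of 19 and rose in 2 (median -0.15), but with quantile normalization 4 fell and 3 rose (median -0.01), and 5 and 2 fell without control replicates 1 and 2 and 4 without either KD library. Vcl, vinculin of focal adhesions, was at 82.6 and 74.5 FPKM in control and 50.4 and 49.0 in KD (-0.65, SE 0.08, adjusted p = 4.98e-04).

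Stress, immune and metabolic lists were mixed, and of all genes 19.3% rose and 16.5% fell. Of the tested interferon genes 1, and of the immediate early genes 1, was under the filter in the control libraries. Such genes add no support to the counts. Interferon response genes rose in 8 of 15 and fell in 1 (median 0.21), and 4 rose without either control library, 5 without KD replicate 1 and 3 without KD replicate 2. Lgals3bp, a secreted glycoprotein, was at 54.4 and 53.3 FPKM in control and 104 and 105 in KD (0.94, SE 0.07, adjusted p = 7.12e-05), and the RNA sensor Ddx58 rose by 0.58. Chemokines and NF-κB targets fell in 7 of 18 and rose in 4 (median -0.19), and 2 to 3 fell and 1 to 2 rose whichever of the 4 libraries was left out. Ccl2, a monocyte chemokine, was at 220 and 209 FPKM in control and 136 and 128 in KD (-0.70, SE 0.11, adjusted p = 0.00162). Immediate early genes rose in 6 of 22 and fell in 2 (27.3% and 9.09%, median 0.02). Fos, of the AP-1 factor, was at 4.45 and 4.12 FPKM in control and 11.4 and 10.3 in KD (1.17, SE 0.10, adjusted p = 1.23e-04), while Egr1, another early gene, was at 3.49 and 3.28 FPKM in control and 1.54 and 1.74 in KD (-0.73, SE 0.11, adjusted p = 0.00184). These early genes thus moved in opposite directions.

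YAP/TEAD genes fell in 6 of 16 and rose in 2 (37.5% and 12.5%), beside 16.5% of all genes lower and 19.3% higher. Their median was 0.03, with 8 differences above 0 and 8 below. Tead2 was at 25.7 and 25 FPKM in control and 12.8 and 12.4 in KD (-0.96, SE 0.18, adjusted p = 0.00436), and Yap1, its coactivator, at 43.1 and 43.4 FPKM in control and 31.5 and 31.3 in KD (-0.45, SE 0.03, adjusted p = 7.70e-05). Both fell, while Ctgf, also a target of this pair, rose. Glycolysis and hypoxia genes fell in 8 of 24 and rose in 5, with the glycolytic enzymes Tpi1 at -0.43 and Pfkl at -0.40 and the hypoxia gene Egln3 at 0.56. With quantile normalization 3 of that list fell and 4 rose, and the median went from -0.15 to -0.0058, while 4 to 7 fell whichever of the 4 libraries was left out. ATF4 and serine synthesis genes rose in 7 of 22 and fell in 4, with the stress protein Nupr1 at 134 and 135 FPKM in control and 230 and 227 in KD (0.76, SE 0.04, adjusted p = 9.71e-06). Heat shock genes rose in 4 of 14 and fell in 3 (3 and 5 with the compared groups alone, 4 and 1 with quantile normalization, and 0 rose without control replicate 2 or KD replicate 2), Bcl2 family genes rose in 3 of 13 (in 2 without control replicate 1 in 1 without any other of the 4 libraries, and 5 rose and 3 fell with the compared groups alone), cholesterol genes rose in 1 and fell in 1 of 24, Notch genes rose in 1 and fell in 1 of 12, nuclear encoded respiratory chain genes rose in 6 and fell in 10 of 75 (10 and 8 with quantile normalization, 11 and 8 with the compared groups alone, 1 and 9 and 3 and 4 without control replicates 1 and 2, 5 and 6 and 3 and 7 without KD replicates 1 and 2), and expressed Zfp zinc finger genes rose in 14 and fell in 29 of 282. Whichever of the 4 libraries was left out, 3 ATF4 genes and 2 glycolysis genes rose. Without control replicate 2 or KD replicate 2, 0 heat shock genes rose, and 8 to 10 Zfp genes rose and 10 to 18 fell when 1 library was left out. None of the 27 clustered histone genes tested was called in limma with all 12 libraries, but 9 were higher and 1 lower in limma with the compared groups alone, and 1 was lower with quantile normalization. Their median was 0.19, and these mostly unpolyadenylated transcripts had medians of 1.36 to 2.31 FPKM per library. Of these histone genes 3, and of the 282 Zfp genes 2, were under the filter in the control libraries.

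Small and structural non-coding RNA genes showed the largest numbers and the poorest agreement. Of 1282 such genes 116 were tested, 2 rose and 5 fell, and 30 of the 116 were under the filter in the control libraries. Mir7024, a microRNA precursor gene, was at 3809 and 4034 FPKM in control and was listed at 0 in both KD libraries and in the other 8 libraries of infected cells. Snord83b was at 529 and 1169 FPKM in control at 8 h and likewise at 0 elsewhere. Both genes thus passed the filter only through the control libraries at 8 h, and their falls add no support to the count. Snord85, at 2360 and 2526 FPKM in control, and Snord69, at 6688 and 14036 FPKM, were listed at 0 in KD, and Snord4a, at 2578 and 1041 FPKM in KD, and Snora33, at 89.1 and 21.6, were listed at 0 in control. Snord104 was at 1666 and 3648 FPKM in control and 894 and 355 in KD. Replicates of one group thus differed by up to several times, and no fold is given against libraries at 0. Genes this short reach a high FPKM from few fragments, and the calls of Snord4a, Snora33 and Snord69 were lost when any 1 of the 4 libraries was left out and that of Snord104 without control replicate 2 or KD replicate 2.

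The same contrast in untreated cells and at 24 h, from other libraries in the same fit, shows where the effects at 8 h differed. KD changed 2254 genes at 0 h (19.7%, of which 10.6% of all tested higher and 9.09% lower) and 3241 at 24 h (28.3%, of which 16.8% higher and 11.5% lower). At 0 h 689 and 738 were called without KD replicates 1 and 2 of that time, and at 24 h 1205 and 1433 without control replicates 1 and 2 of that time. Of the 4104 genes called at 8 h, 1446 were called in the same direction at 0 h (35.2% of the calls at 8 h and 64.2% of those at 0 h) and 2240 at 24 h (54.6% and 69.1%), while 40 and 6 were called in opposite directions. The difference between the effects at 8 h and 0 h was called for 465 genes (4.06%), 281 with a higher (2.45%) and 184 with a lower value at 8 h (1.61%), and the difference between 8 h and 24 h for 35 (0.306%), 26 higher (0.227%) and 9 lower (0.0786%). The first number ranged from 29 to 1485 when 1 library was left out (1485 without control replicate 2 at 0 h, 29 to 57 without any 1 library of the 8 h groups, and 42 and 40 without KD replicate 1 and 2 at 0 h), and the second was 2138 without KD replicate 1 at 24 h 19 and 20 without control replicates 1 and 2 at 24 h, and 17 to 23 without any 1 library of the 8 h groups. Both differences use the libraries at 8 h and are not independent.

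The S phase genes had the largest share of members with a different effect at 8 h and 0 h among the lists with at least 10 tested genes. At 0 h 2 of the 29 were higher and 1 lower in KD (median -0.04), at 8 h 27 were lower (median -0.64), and at 24 h 23 were lower (median -0.39). The difference between 8 h and 0 h was called for 17 of them, all lower at 8 h, beside 1.61% of all genes, and the difference between 8 h and 24 h for 0. Calls of the first difference depended on single libraries, as given above for all genes. The 17 calls could not all remain without either control library or KD replicate 1 at 8 h. The same holds without either KD library at 0 h. Mcm5 was at 57.3 and 68.5 FPKM in control and 56.7 and 57.7 in KD at 0 h, and at 15.7 and 15.3 in control and 8.48 and 9.29 in KD at 24 h. The Mcm5 groups were close at 0 h and apart at both later times (difference of the effects at 8 h and 0 h -0.78, SE 0.11, adjusted p = 0.0157). Mitosis genes had 9 members lower at 0 h, 15 at 8 h and 26 at 24 h, with medians of -0.14, -0.32 and -0.69, and no difference was called for them between 8 h and 0 h. ER stress genes were higher in 6 members and lower in 2 at 0 h and higher in 9 at 24 h, and p53 targets higher in 11 at 0 h and 8 at 24 h, with 11 at 8 h. Integrin and laminin chains were higher in 5 and lower in 3 at 0 h, and the difference between 8 h and 0 h was called for 6, all higher at 8 h, Itga1 (0.99) and Itgb6 (0.61) among them.

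**Figure D4:**
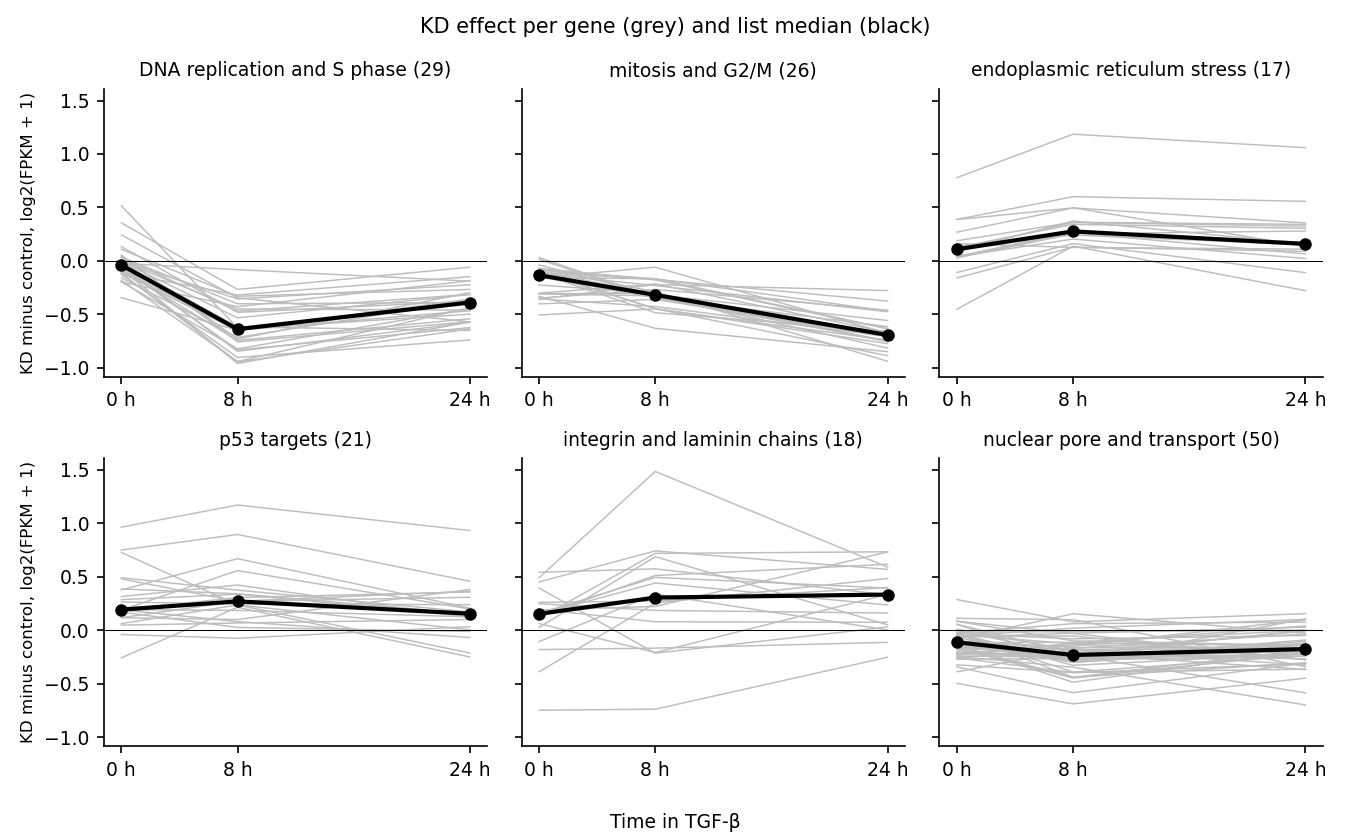
KD minus control on the log2(FPKM + 1) scale (y axis) at 0, 8 and 24 h of TGF-β (x axis) for the tested members of 6 gene lists, 1 grey line per gene and the list median in black. The median of the S phase list drops from -0.04 at 0 h to -0.64 at 8 h and is -0.39 at 24 h, the mitosis list goes from -0.14 to -0.69 at 24 h, and the medians of the ER stress and p53 lists are above 0 at all 3 times.

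Single genes differed between the times in other ways. Prg4 was at 0.175 and 0.206 FPKM in control and 0.245 and 0.339 in KD at 0 h, below 1 FPKM in all 4 libraries, and its effect was larger at 8 h (difference between 8 h and 0 h 1.80, SE 0.10, adjusted p = 1.18e-04). Sprr2a1 was at 4.06 and 3.09 FPKM in control and 62.6 and 55.7 in KD at 0 h and at 0.220 and 0.228 in control and 0.885 and 0.664 in KD at 24 h, so the effect on this scale was present before TGF-β, was larger at 8 h (0.91 above that at 0 h, SE 0.17, adjusted p = 0.0316) and was smaller at 24 h (difference between 8 h and 24 h 4.10, SE 0.17, adjusted p = 1.33e-05). Alb was at 36 and 20.9 FPKM in control and 218 and 226 in KD at 0 h, was listed at 0 in both control libraries at 24 h and was at 0.34 and 0.25 FPKM in KD at 24 h. Papss2, which makes the sulfate donor, was at 11.8 and 11.7 FPKM in control and 22.2 and 22.5 in KD at 8 h (0.88, SE 0.04, adjusted p = 9.71e-06), and its effect at 8 h was above that at 0 h by 0.53 and above that at 24 h by 0.39, both called. Mafk, a small Maf transcription factor, rose by 0.67 at 8 h, above 0 h by 0.35 and above 24 h by 0.50. In all, 18 genes were called at 8 h and in both differences.

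The response of uninfected parental cells to 8 h of TGF-β, from libraries that share nothing with the KD comparison, was used to sort the genes. Of 10843 genes tested in both tables, 19.5% were higher and 16.9% lower in KD at 8 h. Of the 2466 genes that rose with TGF-β in parental cells 29.9% were higher and 9.29% lower in KD (median 0.08), and of the 3490 that fell 19% were higher and 25% lower (median -0.03). Of the 4887 not called in parental cells 14.5% were higher and 15% lower. Genes that rose at least 2-fold in parental cells were higher in KD in 33.5% and lower in 12.5% of 224, and those that fell at least 2-fold were higher in 34.8% and lower in 12.3% of 244. In both classes of at least 2-fold change more genes were thus called higher than lower in KD. Among the 12 genes with the largest rise in parental cells, 5 were higher and 2 lower in KD, and among the 12 with the largest fall, 6 were higher and 0 lower. In untreated cells the strongly falling class already had 85 genes higher and 25 lower in KD.

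Among the 12 on the rising side Ass1, which makes a precursor of arginine, was at 52.8 and 53.4 FPKM in control and 91.8 and 98.0 in KD (adjusted p = 4.65e-04). On the falling side Ugt2b34, a glucuronosyltransferase, was at 3.57 and 3.21 FPKM in control and 9.42 and 9.03 in KD (adjusted p = 1.35e-04), and Vnn1 was at 13 and 14.3 FPKM in control and 47.4 and 44.3 in KD (adjusted p = 8.83e-05). All 3 were higher in both KD libraries than in control. Has2, which makes hyaluronan, and Lmcd1 belong to the rising side and were not called.

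**Figure D5:**
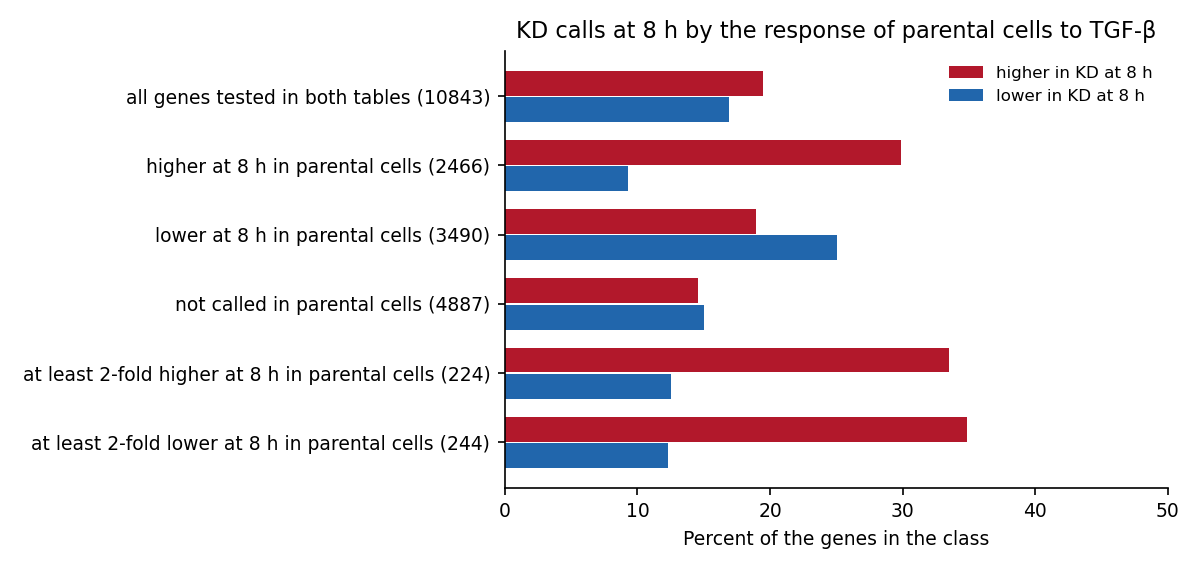
Percent of genes called higher (red) or lower (blue) in KD at 8 h (x axis) in classes set by the response of parental cells to 8 h of TGF-β (y axis, number of genes in brackets). In genes that rose in parental cells the red bar, 29.9%, is longer than the blue bar, 9.29%, in genes that fell the blue bar is longer, and in both classes of at least 2-fold change the red bar is over 30 percent.

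Lamin B1 ChIP-seq of parental cells at 8 h gave a position readout that the contrast did not use. A gene was lamin B1 + when a peak lay between 2500 bp upstream of its start and its 3′ end on mm9. Of 2178 genes higher in KD that could be placed, 1215 were lamin B1 + (55.8%, 95% Wilson interval 53.7 to 57.9), of 1859 lower in KD 1091 (58.7%, 56.4 to 60.9), and of 11110 genes tested 6265 (56.4%, 55.5 to 57.3). The intervals cover sampling of genes only, and under this rule the interval of genes higher in KD included the share of all genes tested, and that of genes lower in KD began next to it. For a peak within 500 bp of the start the share of genes lower in KD was 50.1% (47.9 to 52.4) beside 46.5% of all genes, and for 2500 bp 53.04% (50.8 to 55.3) beside 49.97%, so both intervals lay above the share of all genes. Among genes with a 2-fold change, 14 of 69 higher in KD (20.3%, 12.5 to 31.2) and 7 of 20 lower (35.0%, 18.1 to 56.7) were lamin B1 +. From the other side, 19.4% of the lamin B1 + genes were higher and 17.4% lower in KD, beside 19.9% and 15.9% of genes with no peak, with median absolute differences of 0.15 and 0.16. The order of the shares lower in KD changed with expression level. Under 10 FPKM they were 15.5% with a peak and 12.5% without. At 10 to 100 FPKM they were 17.5% and 18.6%, and over 100 FPKM 27.0% and 23.4%. Peaks lay over the starts of Lmnb2, Tax1bp3 and Herpud1, and none was placed in Emp1, Bcas2, Mcm3, Mcm5, Cdh1, Ctgf, Timp3, Alb, Ephx1, Calml4 or Prg4. Of the lists, 10 of 29 S phase genes (34.5%), 36 of 49 placed nuclear pore genes (73.5%), 13 of 17 ER stress genes (76.5%) and 3 of 12 mesenchymal markers (25%) were lamin B1 +.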

How the data were processed

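RNA-seq of NMuMG cells was deposited by the authors as FPKM per gene, which the submitters' processing notes tie to Bowtie, TopHat, Cufflinks and mm9 without roles or versions. The sources describe 2 biological replicates per group. The table of infected cells has no header, and its 12 columns were read in the order of the libraries in its title. Lamin B1 ChIP-seq peaks were deposited by the authors with a peak score, on mm9, and were placed on GENCODE M1 genes. FPKM carry no counts, so precision rests on the replicates. All 12 libraries of infected cells were fitted together in limma 3.58.1 (R 4.3.3; lmFit, contrasts and eBayes with trend) on log2(FPKM + 1), for genes with at least 1 FPKM in 2 libraries, with Benjamini-Hochberg adjustment over all 11450 genes and a threshold of 0.05. The 6 parental libraries were fitted apart. Summaries used Python 3.11.15, numpy 2.4.6, pandas 2.3.3, scipy 1.17.1 and matplotlib 3.10.9, and shares have Wilson 95% intervals. The fit was tested on simulated data.

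The groups compared were chosen, and the 34 gene lists, 6 marker lists and 7 further lists drawn up, with earlier results of these data known. Named genes were the lamina list, genes of EMT measured in the study, the 12 largest rises and falls among calls with separate libraries and at least 5 FPKM, up to 4 called members of each list with the largest change, the 6 most abundant called genes, and up to 5 genes each way with effects that differ between times. Other list members and genes of the parental response were named after their values were seen. The list of mitochondrially encoded genes had 0 members in the table. Alternatives were another pseudocount, no filter, quantile and median-of-ratios scaling, a replicate block, a fit of the compared groups alone, a 2-fold minimum, other peak rules and leaving out each library. Lamin B1 peaks of untreated cells served as an alternative. ATAC-seq and lamin B1 peaks at 24 h were not used here. Results for some genes are not reported here.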

Additional observations from a re-analysis of the deposited data

Results flagged for a closer look

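The size of the KD effect differed between 8 h and 0 h for 465 genes and between 8 h and 24 h for 35, by the contrast of effects in limma with adjusted p under 0.05. Both numbers depend on single libraries: the first was 1485 without control replicate 2 at 0 h, 40 to 42 without either KD library at 0 h and 29 to 57 without any 1 library of the 8 h groups, and the second was 2138 without KD replicate 1 at 24 h, 19 to 20 without either control library at 24 h and 17 to 23 without any 1 library of the 8 h groups. The named genes that passed are given with the effect at 8 h minus the effect at the other time, on the log2(FPKM + 1) scale.

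Against 0 h, genes of DNA replication and chromosome structure had lower effects at 8 h: Mcm3 (-0.88), Mcm5 (-0.78), Uhrf1 (-0.83), Chaf1b (-0.76), Dnmt1 (-0.76), Zfp367 (-0.82) and Ncapd3 (-0.53). Lower effects were also found for Egr1 (-1.13), Egln3 (-0.44), Pfkl (-0.31), Tpi1 (-0.25), Ifit2 (-0.47) and Apoa1 (-1.74). Adhesion, matrix and protease genes had higher effects at 8 h: Itga1 (0.99), Itgb6 (0.61), Sparc (0.51), Timp3 (0.54), Prg4 (1.80) and Adam8 (0.63). Several epithelial barrier, microvillar and gut genes did as well, though Apoa1, of the same brush border and intestinal list, is among the lower effects above, and that list had 4 higher and 1 lower difference in 9 tested genes: Sprr2a1 (0.91), Sprr2b (0.87), Calml4 (0.80), Cdhr2 (0.78), Cdhr5 (0.70), Anks4b (0.35), Dmbt1 (0.55), Gkn2 (0.60), Lgals4 (0.64) and Vnn1 (1.01). Cdhr2, Cdhr5, Gkn2 and Apoa1 passed the filter only through KD libraries, and the microvillar and gut lists were drawn up after values had been seen. That grouping is therefore a description and no support. The other named genes with higher effects were Ephx1 (1.13), Papss2 (0.53), Hexa (0.66), Sc5d (0.39), Perp (0.37) and Mafk (0.35).

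Against 24 h, higher effects at 8 h were found for Sprr2a1 (4.10), Sprr2b (3.22), Alb (3.08), Dmbt1 (1.39), Gkn2 (1.24), Ces2e (1.15), Cdhr2 (0.95), Cdhr5 (0.66), Apoa1 (0.81), Mafk (0.50) and Papss2 (0.39), and lower effects for Anks4b (-1.29), Anxa10 (-1.07), Hnf4a (-0.97) and Tpi1 (-0.39). At 24 h Sprr2a1 and Alb lay below 1 FPKM in control and in KD, as given above. The added 1 therefore limits their effects at that time, and these differences are not changes in fold. Cdhr2, Cdhr5, Gkn2 and Apoa1 passed the filter only through KD libraries.

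Small RNA genes gave the largest values, which depend on the added 1 wherever libraries are listed at 0. Against 0 h these were Mir7024 (-11.94), Snord83b (-9.62) and Snord85 (-15.94), and against 24 h Mir7024 (-11.94), Snord83b (-9.62) and Snord104 (8.52). Mir7024 and Snord83b passed the filter only through the control libraries at 8 h, so their differences are no support.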

How the results depend on the processing

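The 4104 calls at 8 h became 4120 with a pseudocount of 0.1, 3798 with no filter, 4077 with quantile normalization (2051 higher, 2026 lower), 4172 with median-of-ratios scaling (2439 higher, 1733 lower), 5563 with the compared groups alone, 4193 without small RNA genes (chosen after seeing the data) and 2330 to 2440 without 1 library (higher 1297 to 1434, lower 1006 to 1056). Lmnb1 stayed between -1.93 and -1.87 without 1 library. With a 2-fold minimum 92 genes (70 higher, 22 lower) were left at 8 h, 67 at 0 h, 61 at 24 h, 30 and 18 for the differences from 0 h and 24 h, and 486 in parental cells. The compared groups alone gave 732 at 0 h, 710 at 24 h and 714 for the difference from 0 h. The difference from 24 h gave 23 with a pseudocount of 0.1 and 56 with no filter. Leaving out 1 library gave 689 to 2506 calls at 0 h, 1205 to 4487 at 24 h, 29 to 1485 for the difference from 0 h, 17 to 2138 for that from 24 h, and 4727 to 5880 in parental cells. The share of calls higher in KD at 0 h was 53.8%, and 64.9% with median-of-ratios scaling. The lamin B1 + shares of genes higher, lower and all tested were 45.3%, 50.1% and 46.5% with a peak within 500 bp of the start, 48.7%, 53.04% and 49.97% within 2500 bp, 35.8%, 36.8% and 35.6% for peaks at or above the median score, and 32.0%, 34.9% and 33.4% for peaks at 0 h. With a 2-fold minimum they were 20.3% higher and 35% lower. Directions turned with quantile normalization for Lmna (0.11), Rpl41 (0.0015), Rps18 (0.15), Rps2 (0.16), Tor1aip1 (-0.0053), Vim (0.14), the ribosomal protein median (0.0377) and the respiratory chain median (0.0178), and without 1 library for genes with no call, whose values then ranged from -0.0016 to 0.040 for Cdh2, -0.14 to 0.053 for Fn1, -0.071 to 0.036 for Lmna, -0.054 to 0.23 for Sprr2g, -0.0092 to 0.20 for Syne1 and -0.019 to 0.049 for Tor1aip1. The cause was not tested. The named genes counted next include such genes with no call, which had none to lose. Of 191 named genes, 37 to 46 lost their call without 1 library.

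The replicate numbers did not pair control and KD at 8 h, whose correlation of same-numbered deviations was -0.113. Of 15 pairs of groups, 2 had a correlation over 0.1 (range -0.135 to 0.368), and the highest was that of control and KD at 24 h. At 24 h 3059 genes were called with the replicate block and 3241 without it. With the replicate block 4003 genes were called at 8 h and 284 for the difference from 0 h, and with crossed numbers (chosen after seeing the data) 3851 and 256. No paired fit was made for the parental libraries, whose columns carry no replicate numbers. With 2 libraries a group and no read counts, small differences and genes near the filter are limited most.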

Other observations

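Further gene groups were drawn up after values had been seen, so their counts are a description. The microvillar adhesion complex, which ties the tips of microvilli together, was called higher in KD in all 4 genes that passed the filter at 8 h, of 6 listed, but 2 of these, Cdhr2 and Cdhr5, passed only through KD libraries, so that the count is no support. Cdhr2, a protocadherin of microvilli, was at 0.222 and 0.235 FPKM in control and 2.73 and 2.52 in KD (1.56 on the log2 scale, SE 0.06), and Anks4b, a scaffold of the complex, was at 16.6 and 16.5 FPKM in control and 26.1 and 25.7 in KD (0.62, SE 0.06). Brush border and intestinal genes rose in 8 of the 9 that passed, of 12 listed, and here too 2, Gkn2 and Apoa1, passed only through KD libraries, so that this count is no support either. Hnf4a, a transcription factor of gut and liver epithelium, was at 46.8 and 46.6 FPKM in control and 83.5 and 84.5 in KD (0.83, SE 0.09), and Lgals4, an intestinal galectin, was at 66.0 and 72.6 FPKM in control and 141 and 143 in KD (1.03, SE 0.06). Both KD libraries lay above both controls in these genes. Vil1, villin, rose by 0.74, a call lost without control replicate 1 or KD replicate 2.

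Enzymes of xenobiotic and retinoid metabolism rose in 28 of 55 that passed and fell in 1, and 6 of the 55 passed only with KD libraries, so that it is a description of these genes alone. Ces2e, a carboxylesterase, was at 0.388 and 0.458 FPKM in control and 2.95 and 2.96 in KD (1.47, SE 0.07), and Aldh1a1, which makes retinoic acid, was at 57.9 and 53.8 FPKM in control and 145 and 140 in KD (1.34, SE 0.26). Some of these enzymes belong to families of close copies, whose reads may be shared. Lysosome genes rose in 10 of 23 and fell in 1 (median 0.20), with the protease gene Ctsh at 59.3 and 58.0 FPKM in control and 134 and 131 in KD, and 6 to 7 rose whichever of the 4 libraries was left out. Ribosome biogenesis genes fell in 16 of 23 and rose in 0 (median -0.34), with the nucleolar gene Nop56 at 134 and 131 FPKM in control and 93.2 and 93.5 in KD, and 7 to 10 fell whichever of the 4 libraries was left out. Of 7 tested Sprr genes 3 rose and 1 fell, and of 35 proteasome genes 4 rose and 3 fell, while 0 to 1 were called in each direction whichever of the 4 libraries was left out. Luminal markers had 2 of 6 tested genes higher and 2 lower, and the calls of the 2 lower genes were lost when any 1 of the 4 libraries was left out. Of 8 basal markers 3 were tested and 2 were higher. The tested basal genes had medians of 1.01 and 1.02 FPKM in control and 2.19 and 2.23 in KD. Acta2, given above among the mesenchymal markers, was among the 2 and lay below 1 FPKM in all 4 libraries.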
